A study of Homo sapiens with 12 samples.

Results

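The 10 genes described here are the gene for NRF2, NFE2L2, and 9 genes that NRF2 is known to switch on in oxidative stress, namely HMOX1, NQO1, GCLM, GCLC, TXNRD1, SRXN1, SLC7A11, FTL and FTH1. They were taken by name, and all 10 were found among the 38478 genes of the deposited matrix. Poly(A) RNA was sequenced from OPM-1, an established human multiple myeloma line, after 48 h in 1 of 4 conditions with 3 replicates each: the vehicle DMSO, lenalidomide (LEN) at 0.1 μM, the compound AI-10-104 at 1 μM, or both agents at these doses (LEN+AI-10-104). LEN directs the ubiquitin ligase cereblon to the transcription factors IKZF1 and IKZF3, and AI-10-104 is an inhibitor of RUNX proteins that keeps them from their partner CBFβ. All 12 samples came from this 1 line at 1 dose of each agent and 1 time, so values refer to that setting alone. The study describes the replicates as biological, from independent experiments.

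NRF2 is a transcription factor that the adaptor KEAP1 holds at a low level by marking it for degradation. Oxidants and electrophiles disable KEAP1, after which NRF2 pairs with small MAF proteins at antioxidant response elements and raises genes for glutathione synthesis, thioredoxin, heme breakdown and iron storage. Metal ions such as zinc act on MTF1, a different factor, which binds metal response elements and raises the metallothioneins and the zinc exporter SLC30A1. Some metals, cadmium among them, provoke oxidative stress as well. The comparison asked here is whether the NRF2 genes moved in cells given AI-10-104, a condition in which MT1X, MT2A and SLC30A1, genes of the metal response, were higher.

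The letters of both elements were looked up in promoters, because different factors bind them. RefSeq windows of 250 bases before the start (GRCh38.p14) were found for 7 of the 10 genes, all but HMOX1, SLC7A11 and FTH1. On either strand, TGACNNNGC stood for the antioxidant element and TGCGCNC or TGCACNC for the metal element. The first occurs in 10.9% and the second in 24.8% of all 35116 windows. Among the 7 genes, which had 9 windows, 2 (GCLM and TXNRD1) had the antioxidant letters and 3 (GCLM, GCLC and TXNRD1) the metal letters. The shares above are per window, so counts of genes, some with more than 1 window, are not directly comparable. TXNRD1 has a second window (chr12:104286782-104287031), not printed here, with the antioxidant letters and without the metal letters. Of 13 metal response genes 7 had a window, of which 4 held the antioxidant letters and 6 the metal letters. The windows of TXNRD1 (chr12:104215529-104215778, plus strand), GCLM (chr1:93909431-93909680, minus strand), NQO1 (chr16:69726561-69726810, minus strand) and MT2A (chr16:56608334-56608583, plus strand) are printed 5′ to 3′ with the matches in capitals. They were chosen after their matches and expression were seen. They show 2 NRF2 genes with both kinds of letters, 1 with neither in this window, and a metallothionein.
TXNRD1: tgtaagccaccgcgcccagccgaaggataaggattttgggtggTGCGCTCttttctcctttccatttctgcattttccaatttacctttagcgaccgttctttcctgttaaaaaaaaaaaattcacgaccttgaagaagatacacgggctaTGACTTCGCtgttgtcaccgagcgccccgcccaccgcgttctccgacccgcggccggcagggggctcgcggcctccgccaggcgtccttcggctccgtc
GCLM: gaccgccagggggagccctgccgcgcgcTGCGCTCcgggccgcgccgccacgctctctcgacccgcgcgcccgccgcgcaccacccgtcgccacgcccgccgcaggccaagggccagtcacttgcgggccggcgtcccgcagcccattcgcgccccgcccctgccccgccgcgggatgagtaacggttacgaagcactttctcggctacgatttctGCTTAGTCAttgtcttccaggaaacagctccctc
NQO1: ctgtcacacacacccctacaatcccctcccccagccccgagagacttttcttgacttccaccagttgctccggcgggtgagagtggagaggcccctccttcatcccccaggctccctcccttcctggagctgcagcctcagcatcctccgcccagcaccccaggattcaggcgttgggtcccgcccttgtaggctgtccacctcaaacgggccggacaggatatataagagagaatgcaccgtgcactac
MT2A: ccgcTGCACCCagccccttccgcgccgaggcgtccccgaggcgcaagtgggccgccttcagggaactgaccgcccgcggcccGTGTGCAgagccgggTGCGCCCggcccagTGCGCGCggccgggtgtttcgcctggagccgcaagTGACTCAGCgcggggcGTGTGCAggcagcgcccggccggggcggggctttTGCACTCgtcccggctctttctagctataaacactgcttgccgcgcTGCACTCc
MT2A held 7 metal matches and 1 antioxidant match, whose letters overlap those of an AP-1 site. A match is a description of these letters and not a binding site. A window without a match does not show that a gene lacks the element, since only these 250 bases were counted.

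Expression was deposited in RPKM, the reads of a gene scaled for its length and for library depth, which allows levels to be compared between genes. Libraries held 16352548 to 31386210 reads on genes. All 7 plasma cell markers examined, SDC1, TNFRSF17, PRDM1, IRF4, XBP1, MZB1 and CD38, were at 28.6 RPKM or more in every library, whereas 5 markers of other blood cells (PAX5, MS4A1, CD3E, CD14 and LYZ) had 0 to 19 reads. Of the plasma cell markers, only XBP1 met the rule for a call given below, at a log2 fold change of -0.35 for LEN+AI-10-104 against AI-10-104 (limma, adjusted p = 0.00061). For AI-10-104 against DMSO it had 0.31 (adjusted p = 0.0010), short of a call. By the adjusted p alone, CD38 was higher in LEN+AI-10-104 against DMSO (0.18, adjusted p = 0.029). XBP1, TNFRSF17 and MZB1 were higher with AI-10-104 averaged over cells without and with LEN (0.21, 0.11 and 0.11, adjusted p = 0.00056, 0.020 and 0.038). The part of these markers in the results was not tested. In bulk RNA, a smaller number of expressing cells and less RNA per cell cannot be told apart. A gene was called where its Benjamini-Hochberg adjusted p over 11241 genes was at most 0.05 and its log2 fold change at least 0.32 in size. Whether samples of 2 conditions overlap is given as a description only, since the share of all genes without overlap was not counted.

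All 10 genes were expressed in the vehicle. FTL, the light chain of the iron store ferritin, was the highest at a mean of 2043 RPKM in DMSO, followed by TXNRD1 at 153 and FTH1 at 147. NFE2L2, SRXN1, NQO1 and HMOX1 lay at 31.5, 28.5, 27.6 and 20.4 RPKM, GCLC and GCLM at 14.6 and 13.8, and SLC7A11 was the lowest at 7.24. In this order the DMSO samples of TXNRD1 and FTH1, of SRXN1 and NQO1, and of GCLC and GCLM overlapped, whereas the other neighbours did not overlap. Across all samples the 10 genes had 562 to 59483 reads.

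None of the 10 NRF2 genes was called higher with AI-10-104 or in any other comparison, and 1, SLC7A11, was called lower in AI-10-104 against DMSO, where 1.77% of all genes were called, and in LEN+AI-10-104 against LEN, where 1.68% were. These comparisons share no sample, though their p-values rest on an estimate of the spread shared by all conditions. With the adjusted p alone, 3 of 10 genes were past the threshold in each, all lower, beside 4.55% and 4.62% of all genes. They were SLC7A11, HMOX1 and NQO1 in the first comparison and SLC7A11, NQO1 and NFE2L2 in the second. The highest upper 95% bound of any of the 10 was 0.26 (log2) in the first comparison and 0.23 in the second, both for GCLC and under the 0.32 that a call needs. The median log2 fold change was -0.08 in the first and -0.01 in the second, beside 0.01 and 0.02 over all genes tested. As a description, the mean of the 10 log2 values relative to DMSO was -0.10 to -0.08 in the AI-10-104 samples and -0.10 to -0.09 in LEN+AI-10-104, and -0.05 to 0.02 in LEN. Without SLC7A11 these ranges were -0.07 to -0.03, -0.03 to -0.02 and -0.01 to 0.05.

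**Figure D1:**
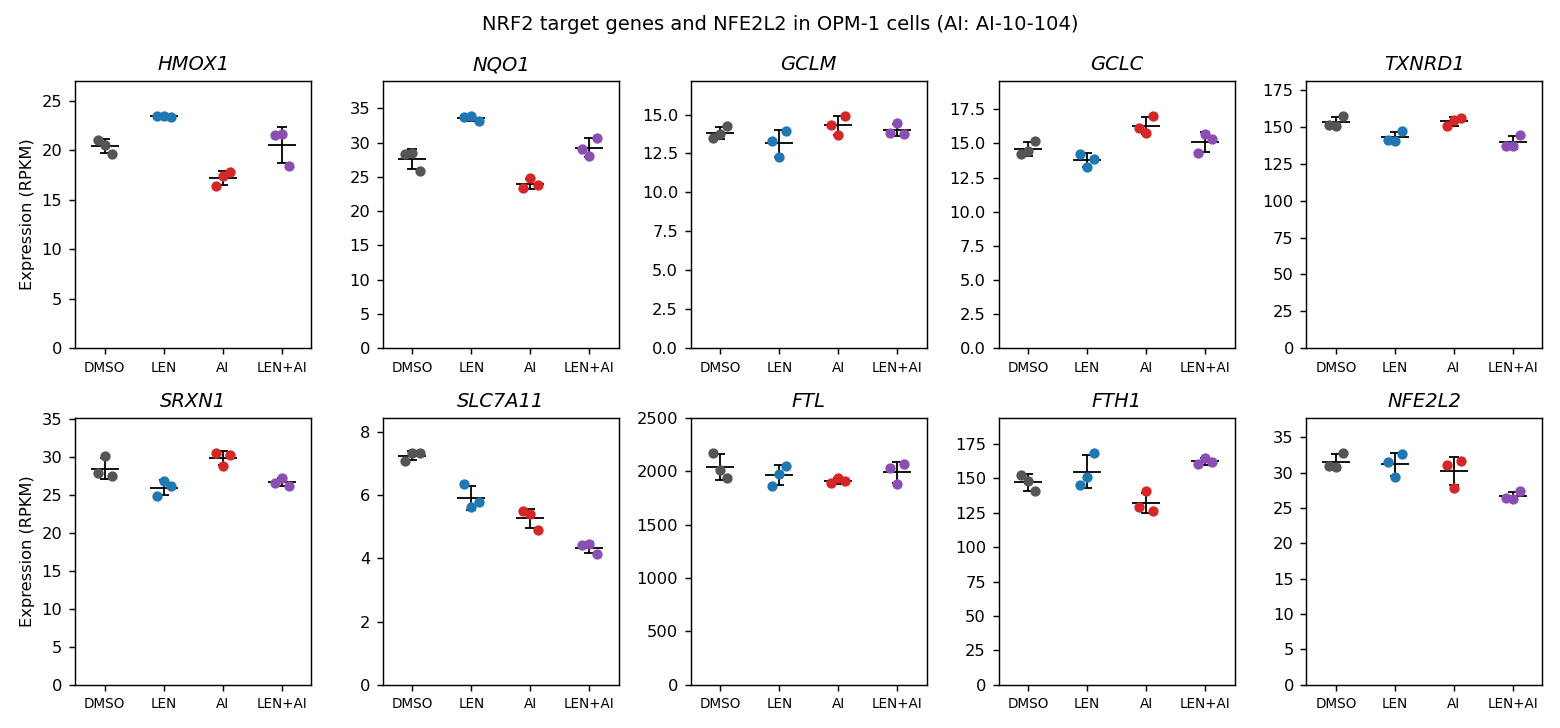
Expression in RPKM (vertical axes, from 0) of the 10 genes in the 4 conditions, with each replicate as a point and the mean ± SD as lines (AI stands for AI-10-104). SLC7A11 steps down from 7.24 in DMSO to 4.34 RPKM in LEN+AI-10-104, and it is the only gene of the 10 with a call in any comparison.

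The called difference was in a gene of cystine import. SLC7A11 encodes the light chain of the cystine and glutamate exchanger that supplies cysteine for glutathione (GENCODE 44, GRCh38, chromosome 4, 138164097 to 138242349, minus strand). It was at 7.07, 7.34 and 7.32 RPKM in DMSO, at 6.33, 5.61 and 5.79 in LEN, at 5.48, 5.39 and 4.91 with AI-10-104 and at 4.41, 4.45 and 4.14 with both agents. Its antisense gene SLC7A11-AS1 had at most 10 reads. The 4 conditions did not overlap, with DMSO the highest and LEN+AI-10-104 the lowest. SLC7A11 fell by 0.46 on the log2 scale with AI-10-104 against DMSO (SE 0.06, limma, adjusted p = 0.0010) and by 0.44 with LEN+AI-10-104 against LEN (SE 0.06, adjusted p = 0.0015). Averaged over both backgrounds it fell by 0.45 (SE 0.04, adjusted p = 4.1e-05). Its partner SLC3A2, the heavy chain, was at 105, 96.1, 96.1 and 95.3 RPKM (means in the same order of conditions) and was not called.

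Glutathione synthesis showed no such fall. GCLC, the catalytic subunit of glutamate-cysteine ligase (chromosome 6, 53497341 to 53616970), was at 14.2, 14.4 and 15.2 RPKM in DMSO, 14.2, 13.3 and 13.9 in LEN, 16.2, 15.7 and 17.0 with AI-10-104 and 14.3, 15.7 and 15.3 in LEN+AI-10-104. The AI-10-104 samples were all above DMSO, and the LEN+AI-10-104 samples all above LEN. Averaged over LEN, its log2 fold change for AI-10-104 was 0.14 (SE 0.03, limma, adjusted p = 0.020), short of the size needed for a call. GCLM, the modifier subunit (chromosome 1, 93885199 to 93909456), was at 13.5, 13.7 and 14.3, at 13.3, 12.2 and 14.0, at 14.3, 13.7 and 14.9, and at 13.8, 14.5 and 13.7 RPKM in DMSO, LEN, AI-10-104 and the combination. Its samples overlapped between all conditions, and its averaged log2 fold change was 0.07 (95% interval -0.01 to 0.15).

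HMOX1 and NQO1, commonly read as signs of NRF2 activity, were lower rather than higher with AI-10-104. HMOX1, which breaks down heme (chromosome 22, 35380361 to 35394214), was at 21.0, 20.5 and 19.6 RPKM in DMSO, 23.5, 23.5 and 23.4 in LEN, 16.4, 17.4 and 17.8 with AI-10-104 and 21.5, 21.6 and 18.4 in LEN+AI-10-104. AI-10-104 samples lay under DMSO and LEN+AI-10-104 samples under LEN, without overlap. The log2 fold change averaged over LEN was -0.22 (SE 0.04, limma, adjusted p = 0.0057). For LEN+AI-10-104 against LEN, HMOX1 did not pass the adjusted p. By limma voom on reads it had -0.20 there (adjusted p = 0.054), and quantile normalization gave an adjusted p of 0.043 (limma). NQO1, a quinone reductase (chromosome 16, 69706996 to 69726668), was at 28.3, 28.5 and 25.9 RPKM in DMSO, 33.7, 33.9 and 33.1 in LEN, 23.4, 24.8 and 23.8 with AI-10-104 and 29.0, 28.1 and 30.7 in LEN+AI-10-104. The order was the same, again without overlap between the samples of either comparison. Its averaged log2 fold change was -0.20 (SE 0.03, limma, adjusted p = 0.0025). Neither reached the size that a call requires.

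In the thioredoxin branch the differences with AI-10-104 were small. TXNRD1, which keeps thioredoxin reduced (chromosome 12, 104215779 to 104350307), was at 152, 151 and 158 RPKM in DMSO, 141, 141 and 147 in LEN, 151, 155 and 156 with AI-10-104 and 137, 137 and 145 in LEN+AI-10-104. AI-10-104 and DMSO overlapped, and the averaged log2 fold change was -0.01 (95% interval -0.07 to 0.04). SRXN1, which repairs oxidized peroxiredoxins (chromosome 20, 646615 to 653200), was at 27.9, 30.1 and 27.4, at 24.9, 26.9 and 26.1, at 30.6, 28.8 and 30.3, and at 26.5, 27.2 and 26.2 RPKM in the same order. Its AI-10-104 samples overlapped those of DMSO, and its averaged log2 fold change was 0.05 (95% interval -0.01 to 0.12).

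The ferritin genes did not differ by a call. FTL (chromosome 19, 48965309 to 48966879) was at 2176, 2015 and 1940 RPKM in DMSO, 1863, 1979 and 2050 in LEN, 1888, 1941 and 1908 with AI-10-104 and 2029, 1877 and 2065 in LEN+AI-10-104. These ranges overlapped throughout, with an averaged log2 fold change of -0.04 (95% interval -0.12 to 0.04). FTH1, the heavy chain (chromosome 11, 61959718 to 61967634), was at 153, 148 and 141, at 145, 151 and 169, at 130, 141 and 126, and at 160, 165 and 162 RPKM. Its mean was highest in LEN+AI-10-104 and lowest in AI-10-104, and these 2 conditions did not overlap (log2 fold change 0.30, SE 0.06, limma, adjusted p = 0.0085), and its averaged AI-10-104 effect was -0.04 (95% interval -0.13 to 0.04). Both genes have near-identical processed copies, so their levels are uncertain where reads could be split. Of 3 such copies in the matrix, FTH1P3 had 5 to 19 reads, and FTH1P18 and FTLP10 are listed at 0.

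NFE2L2 itself (chromosome 2, 177218667 to 177392756) was at 31.0, 30.8 and 32.8 RPKM in DMSO, 31.4, 29.4 and 32.7 in LEN, 31.1, 27.9 and 31.6 with AI-10-104 and 26.5, 26.3 and 27.4 in LEN+AI-10-104. The first 3 conditions overlapped, and the combination lay under all of them. Its log2 fold change was -0.24 for LEN+AI-10-104 against DMSO (SE 0.05, limma, adjusted p = 0.019) and -0.06 for AI-10-104 against DMSO (SE 0.05, adjusted p = 0.51). For LEN+AI-10-104 against LEN it was -0.22 (limma, adjusted p = 0.037), and for AI-10-104 averaged over LEN -0.14 (adjusted p = 0.034). These 2 passed the adjusted p in only 14 of 22 and 12 of 21 alternative fits. NRF2 is controlled mainly at the level of protein, which RNA does not measure. Exons of NFE2L2 in GENCODE 44 reach into the spans of HNRNPA3 and AGPS on the opposite strand, whose reads numbered up to 11559 and 5864. These exons hold 14975 bases, beside a deposited length of 3584 for NFE2L2. Whether the counted exons overlap either gene was not examined, and whether counting used strand is not given in the sources used here.

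**Figure D2:**
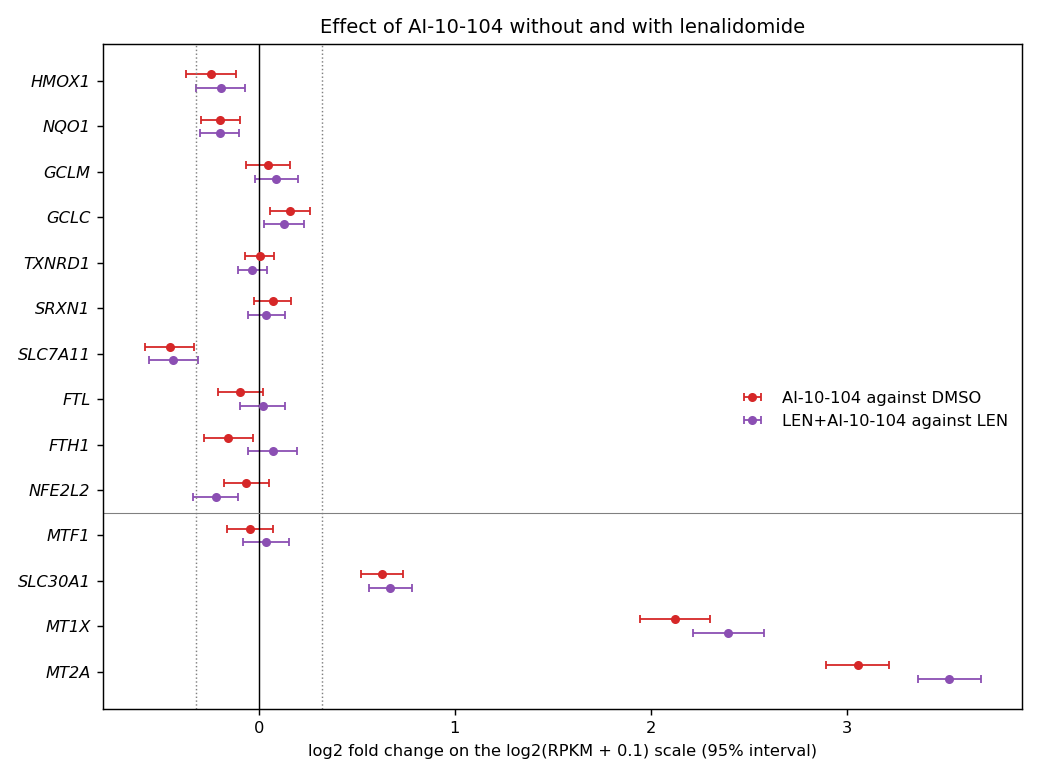
Log2 fold changes (horizontal axis, with 95% intervals) of the 10 genes, above the line, and 4 metal response genes, below it, for AI-10-104 against DMSO and LEN+AI-10-104 against LEN, with dotted lines at the size a call needs. SLC7A11 lies to the left in both, at -0.46 and -0.44, and MT2A to the right at 3.06 and 3.52.

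The 13 metal response genes are given beside them, having been listed with their result known. MT1X, MT2A and SLC30A1 rose in both comparisons, whereas MTF1 was not called. MT1G was called as well, but it passed the filter on low values only through the samples with AI-10-104, so its call is not counted as support. MT2A, a metallothionein that binds zinc, was at 15.4, 19.3 and 15.5 RPKM in DMSO, 13.1, 12.9 and 13.1 in LEN, 143, 144 and 130 with AI-10-104 and 155, 149 and 149 in LEN+AI-10-104. Every sample with AI-10-104 was above every sample without it, and MT2A rose by 3.06 on the log2 scale against DMSO (SE 0.07, limma, adjusted p = 5.6e-10) and by 3.52 against LEN (SE 0.07, adjusted p = 1.1e-10). With LEN against DMSO it fell by 0.35 (adjusted p = 0.049). MT1X rose from means of 32.3 and 31.3 RPKM in DMSO and LEN to 141 and 165. SLC30A1 rose from 26.7 and 26.1 to 41.3 and 41.6 RPKM. MT1E, with 0 to 2 reads in DMSO and 9 to 18 in AI-10-104, was at least 4.62-fold higher against a floor of 3 reads per library, and MT1G, with 0 to 1 and 18 to 39 reads, at least 10.0-fold. Against LEN no bound is given for MT1G, since LEN replicate 2 held 6 reads. MTF1, the metal sensor, was at 5.97, 5.81, 5.77 and 5.95 RPKM and was not called. The other 7 genes of the list are listed at 0. A value at or near 0 in this matrix does not show that a gene is silent, since GPX1 and HMOX2, which most cells use, are listed with 0 to 6 and 0 to 1 reads, and the same holds for the ferritin copies and for the further genes that were not tested.

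Further NRF2 genes and regulators gave no call in any comparison. By the adjusted p alone, PGD was higher and UGDH and MAFG lower for AI-10-104 averaged over LEN, and TALDO1 was lower in AI-10-104 against DMSO. SQSTM1 was higher in LEN+AI-10-104 against DMSO (log2 fold change 0.28, limma, adjusted p = 0.0125), where 8.64% of all genes passed. In LEN+AI-10-104 against AI-10-104, 3 targets and 3 regulators were higher and 2 and 1 lower, beside 15.0% of all genes. Of 33 further target genes 20 were tested, with a median log2 fold change averaged over LEN of 0.02. Of the 8 regulators all were tested, with a median of -0.01. KEAP1 was at 59.6, 60.7, 55.8 and 64.1 RPKM (means in DMSO, LEN, AI-10-104 and LEN+AI-10-104), and BACH1, a repressor at antioxidant elements, at 7.13, 7.24, 7.43 and 6.80. MAFG, a small MAF partner of NRF2, was at 29.8, 30.6, 25.3 and 30.4 RPKM and was lowest in AI-10-104, with a log2 fold change against DMSO of -0.23 (SE 0.04, limma, adjusted p = 0.0072) that was short of a call. Of 14 general redox enzymes 13 were tested and none was called, with a median of 0.02. By the adjusted p alone (limma), 0 passed for that average, and PRDX3 was higher in AI-10-104 against DMSO (0.18, adjusted p = 0.039). GPX4 was higher in LEN+AI-10-104 against DMSO (0.23, adjusted p = 0.015) and against LEN (0.23, adjusted p = 0.022). In these 3 comparisons 0 were lower, beside 4.55%, 8.64% and 4.62% of all genes passing. Against AI-10-104, 3 were higher and 1 lower in LEN+AI-10-104. For comparison, 1.88% of all genes were called for AI-10-104 averaged over LEN (9.55% by the adjusted p alone), and of the 10 NRF2 genes 1 and 5. Of these 5, GCLC was higher and SLC7A11, HMOX1, NQO1 and NFE2L2 were lower. At an unadjusted p under 0.05 (limma) stood 5 of the 20 further targets, 1 of the 8 regulators and 3 of the 13 redox enzymes, beside 2750 of all 11241 genes.

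**Figure D3:**
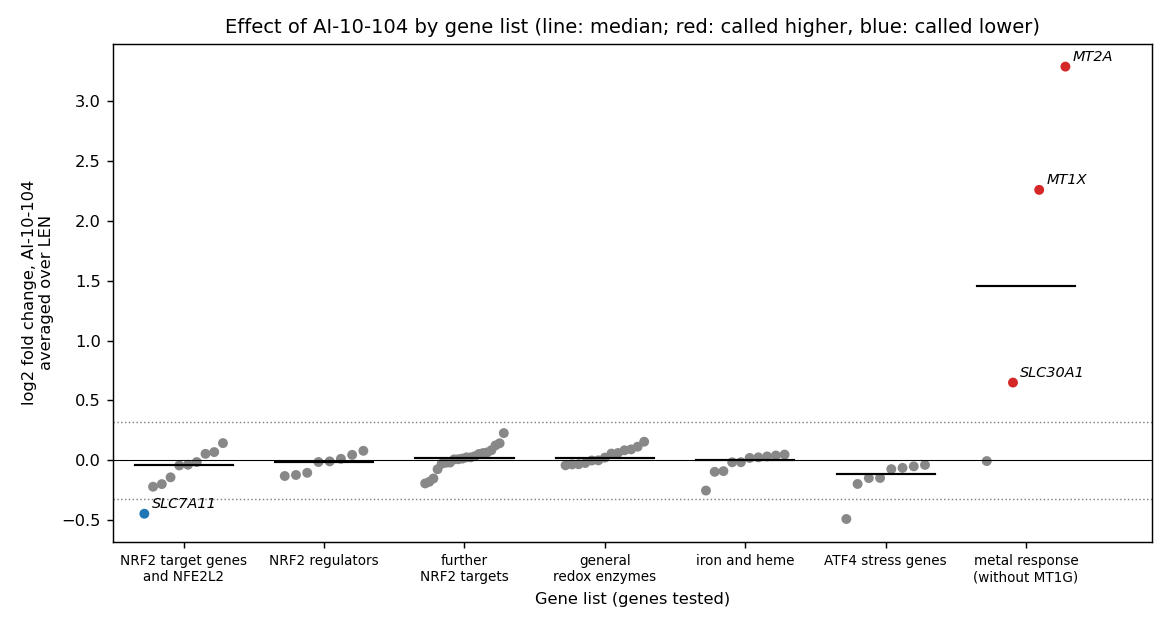
Log2 fold change of AI-10-104 averaged over LEN (vertical axis) for each tested gene of 7 lists, with the median as a line and dotted lines at the size a call needs. Called genes are coloured, SLC7A11 at -0.45 and the metal response genes SLC30A1, MT1X and MT2A at 0.65, 2.26 and 3.29, while the low grey point among the ATF4 genes is CHAC1 at -0.49, which was not called, and MT1G is left out because DMSO held at most 1 read.

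Iron and amino acid stress genes were examined because SLC7A11 also belongs to the ATF4 response. Of 11 iron and heme genes 10 were tested. BLVRA, which reduces the biliverdin made by HMOX1, was at 4.57, 3.97 and 4.27 RPKM in DMSO, 8.48, 6.66 and 7.24 in LEN, 3.79, 3.83 and 3.59 with AI-10-104 and 7.0, 5.98 and 4.97 in LEN+AI-10-104. Both conditions with LEN lay above both without it, and BLVRA rose by 0.79 on the log2 scale with LEN against DMSO (limma, adjusted p = 0.0055) and by 0.65 with LEN+AI-10-104 against AI-10-104 (adjusted p = 0.0063). TFRC, the transferrin receptor, was at 113, 109, 120 and 110 RPKM and was not called. Of 10 ATF4 genes 8 were tested, and ASNS and SESN2 fell in LEN+AI-10-104 against DMSO, by 0.38 and 0.36 (adjusted p = 0.0093 and 0.046), beside 2.94% of all genes called. ATF4 itself had a log2 fold change of -0.26 there (limma, adjusted p = 0.027), short of a call. By the adjusted p alone, 1 of the 10 iron and heme genes was lower in AI-10-104 against DMSO, beside 4.55% of all genes. For AI-10-104 averaged over LEN, the medians were 0.00 for iron and heme genes and -0.11 for ATF4 genes. In this average 2 of the 10 iron and heme genes passed the adjusted p, both lower, beside 9.55% of all genes. All 8 ATF4 genes tested were lower in that average, beside 4834 of all 11241 genes, and 0 of the 8 passed the adjusted p. At an unadjusted p under 0.05 (limma) stood 4 of these 8 and 3 of the 10 iron and heme genes, beside 2750 of 11241.

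With LEN, HMOX1 and NQO1 were higher and SLC7A11, TXNRD1 and SRXN1 lower in every sample than in DMSO, which is a description without a share of all genes beside it. Against DMSO, NQO1 had a log2 fold change of 0.28 (SE 0.05, limma, adjusted p = 0.011) and SLC7A11 of -0.29 (SE 0.06, adjusted p = 0.037). HMOX1, TXNRD1 and SRXN1, at 0.20, -0.10 and -0.13, did not pass the adjusted p (0.16, 0.23 and 0.23). None of the 10 genes was called for LEN against DMSO by limma on RPKM or by limma voom on reads, where 0.649% of all genes were (RPKM), 5 of 10 had an unadjusted p under 0.05 beside 1206 of 11241 genes, and 2 of 10 (NQO1 higher and SLC7A11 lower) were past the adjusted p alone beside 1.13%. None was called for LEN+AI-10-104 against AI-10-104 (3.63% of all genes), and none by limma voom, while 7 of 10 were past the adjusted p alone beside 15.0%, with HMOX1, NQO1 and FTH1 higher and TXNRD1, SRXN1, SLC7A11 and NFE2L2 lower, and 8 of 10 had an unadjusted p under 0.05 beside 3729 of 11241 genes. Leaving out 1 sample brought 1 call into these comparisons in 4 cases: SLC7A11 at -0.34 without LEN replicate 1 for LEN against DMSO, and, against AI-10-104, FTH1 at 0.34 without AI-10-104 replicate 2, SLC7A11 at -0.32 without AI-10-104 replicate 3 and HMOX1 at 0.33 without LEN+AI-10-104 replicate 3. For LEN+AI-10-104 against DMSO, SLC7A11 fell by 0.73 (SE 0.06, adjusted p = 1.7e-05), and 3 of 10 were past the adjusted p alone beside 8.64%. HMOX1 had a log2 fold change of 0.01 there (95% interval -0.12 to 0.13).

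**Figure D4:**
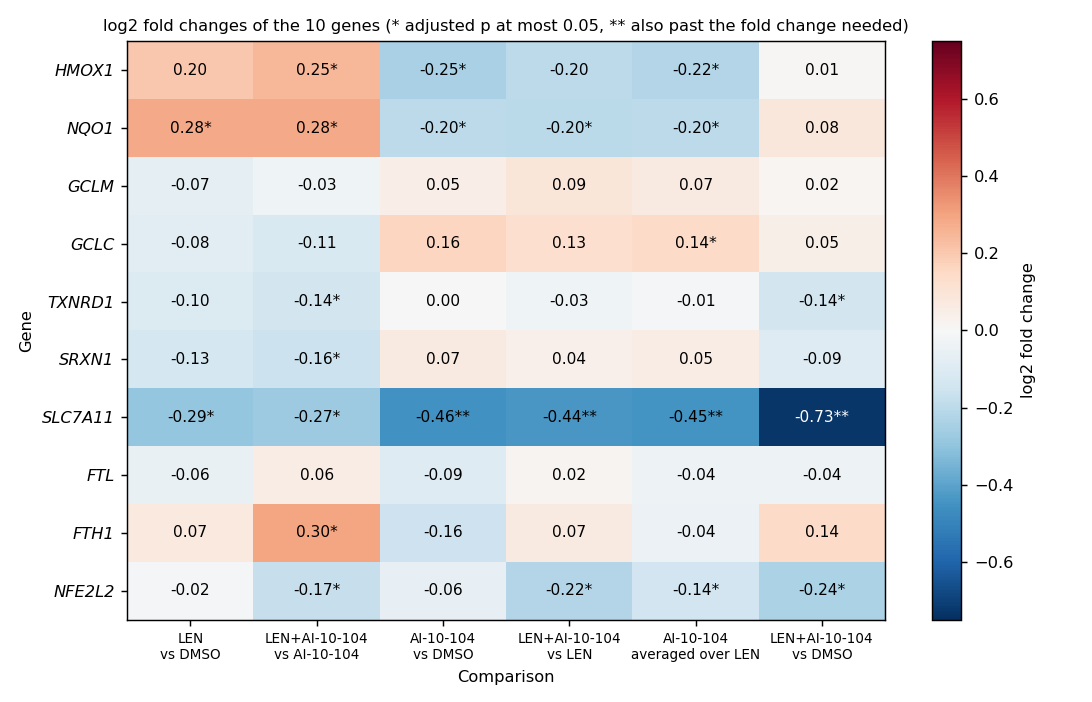
Log2 fold changes of the 10 genes (rows) in 6 comparisons (columns), from blue for lower to red for higher. Only SLC7A11 carries the double mark of a call, and HMOX1 and NQO1 are red with LEN and blue with AI-10-104.

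The effect of AI-10-104 was not shown to depend on LEN. The interaction passed the adjusted p for 0 of 10 genes and for 0.0% of all genes (limma), with 1 of 10 (FTH1, log2 difference 0.23, adjusted p = 0.29) and 1621 of 11241 genes at an unadjusted p under 0.05. On reads, limma voom gave 0 of 10, and 2 genes higher and 1 lower over all genes. For SLC7A11 the difference was 0.02 (95% interval -0.16 to 0.20) and for NQO1 -0.00 (95% interval -0.14 to 0.14).

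Over the 12 samples, the genes whose centred log2 values lay closest to those of HMOX1 were PC, TCF4 and DUSP6, at root mean square differences of 0.065, 0.066 and 0.067 beside a spread of HMOX1 itself of 0.17. For SLC7A11 they were PYCR1, SLC7A2 and TMEM255A at 0.099, 0.12 and 0.12, beside 0.27. PYCR1, which makes proline, went from a mean of 115 RPKM in DMSO to 101 in LEN, 86.3 with AI-10-104 and 77.2 in LEN+AI-10-104, the same order as SLC7A11.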

How the data were processed

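RNA-seq of 12 OPM-1 samples was analysed from the deposited matrix. The authors aligned reads with STAR to GRCh38, and the submitters' processing notes also name FastQC, Cuffnorm and DESeq2. Values are RPKM as deposited by the authors, beside the gene length that featureCounts gave per the file headers. RPKM times length gave whole reads for 100% of values (within 0.1 read). Counting settings are not given in the sources used here, and 28 symbols are date numbers. Of the columns, 0 belonged to no sample.

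log2(RPKM + 0.1) was taken for the 11241 genes whose mean reached 0.5 RPKM and fitted with limma 3.58.1 in R 4.3.3, with 1 mean per condition, a variance trend and Benjamini-Hochberg adjustment. Fold changes are on that scale and are understated for low genes. The script was tested on simulated data. Annotation was GENCODE 44. Promoter windows were first searched over their full length and then restricted to the 250 bases before the start. Named were all 10 genes, called genes of the further lists, and fixed regulators and metal genes. The members and lists were chosen with earlier results of these data known.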

Additional observations from a re-analysis of the deposited data

How the results depend on the processing

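With no fold change threshold, 2 of the 10 genes passed for LEN against DMSO, 3 each for AI-10-104 against DMSO, LEN+AI-10-104 against DMSO and LEN+AI-10-104 against LEN, 7 for LEN+AI-10-104 against AI-10-104 and 5 for AI-10-104 averaged over LEN. With a fold change of 1.5, 0 passed for AI-10-104 against DMSO, for LEN+AI-10-104 against LEN and for the average. Leaving out 1 sample gave 0 to 1 calls for LEN against DMSO (SLC7A11 without LEN replicate 1, -0.34) and 0 to 1 for LEN+AI-10-104 against AI-10-104 (FTH1 without AI-10-104 replicate 2, 0.34, SLC7A11 without AI-10-104 replicate 3, -0.32, and HMOX1 without LEN+AI-10-104 replicate 3, 0.33). SLC7A11 kept its side of the adjusted p in all 22 alternatives for AI-10-104 against DMSO (-0.49 to -0.40) and for LEN+AI-10-104 against LEN (-0.47 to -0.37). HMOX1 and NQO1 did so in 21 of 21 for the average, but in 12 and 15 of 22 for AI-10-104 against DMSO. For the average, GCLC did so in 18 and NFE2L2 in 12 of 21. Over 23 differences of single genes, 410 of 501 values kept their side, 91 were weaker and 0 reversed. Same-numbered samples of different conditions correlated at -0.03 to 0.16 (mean 0.05), and differently numbered ones at -0.13 to 0.06 (mean -0.03). Whether the numbers mark shared experiments is not given in the sources used here, and the main fit used no block. Over all genes, a replicate block gave 89 higher and 139 lower for AI-10-104 against DMSO, beside 77 and 122 without it. With a replicate block, SLC7A11 had -0.46 (adjusted p = 0.0015) for AI-10-104 against DMSO, and the counts of calls among the 10 genes did not move. The setting that fitted only the conditions compared was not run for the average or the interaction. The called gene SLC7A11 had 719 to 2191 reads per library.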
